A study of Homo sapiens with 24 samples.

Results

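The 9 genes described here are nucleotide excision repair genes chosen by symbol, ERCC1, ERCC2, ERCC3, ERCC4, ERCC5, ERCC6, ERCC8, DDB1 and RAD23B, and all 9 were found among the 33113 genes of the count table. HCT116 is an established human colorectal carcinoma cell line, and HCT116 oxpl-R cells are a line that the study derived from it by repeated pulses of oxaliplatin, a platinum drug that forms DNA adducts. Both lines carry a TetOn-E1A transgene, so that doxycycline turns on the adenovirus protein E1A, and the untreated controls carry it too. In each line RNA was sequenced in 4 conditions with 3 biological replicates, 24 samples in all. The controls received nothing, the oxaliplatin samples received 25 µM for 24 h, the E1A samples received doxycycline at 0.5 µg/mL, and the E1A + oxaliplatin samples received doxycycline 3 h before oxaliplatin. Cells without the transgene were not among the groups, so doxycycline and E1A cannot be told apart. The study describes the HCT116 oxpl-R karyotype as hypotetraploid and mixed, which limits the line as a model of resistance alone.

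Nucleotide excision repair cuts out a short single strand around bulky adducts, among them the intrastrand crosslinks made by platinum drugs. DDB1, in an ubiquitin ligase, and RAD23B, which stabilizes the sensor XPC, serve the recognition of damage anywhere in the genome, while ERCC6 (CSB) and ERCC8 (CSA) act where damage stalls RNA polymerase. ERCC3 (XPB) and ERCC2 (XPD) are helicase subunits of the transcription factor TFIIH, which opens the DNA, after which ERCC1 with ERCC4 (XPF) cuts on the 5′ side and ERCC5 (XPG) on the 3′ side of the lesion.

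The values are estimated counts per gene, and levels are given as CPM (counts scaled to a common library size) after TMM normalization over all 24 samples. Sample totals of the count table ran from 24838095 to 37927720, and the table ends before the last letters of the alphabet, so a CPM here is a share of that part of the genes. A gene is called where the adjusted p-value of the edgeR quasi-likelihood test is below 0.05, and log2FC values come with their standard error (SE). Epithelial markers (EPCAM, CDH1, KRT8, KRT18 and KRT19) summed to 5123 to 16323 CPM per sample, the intestinal markers to between 25.0 and 79.0 CPM, nearly all of it CDX2, the 4 leukocyte markers to at most 1.05 CPM and the 3 endothelial markers to at most 0.912 CPM. The fibroblast markers summed to between 13.96 and 53.3 CPM, chiefly through COL1A1, while DCN was at 0 in 17 samples and LUM in 18. Of the 5 epithelial markers, KRT19 rose after oxaliplatin in all 4 comparisons (log2FC 0.88 to 1.18), KRT8 (0.63 to 0.98) and KRT18 (0.55 to 0.86) were called higher in 2 of the 4, in HCT116 cells, and CDH1 (-0.14 to 0.40) and EPCAM (-0.38 to 0.01) were not called. The part of these markers in the results was not tested. CDKN1A, a p53 target, rose after oxaliplatin with a log2FC of 3.78 in the parental cells and 2.88 in HCT116 oxpl-R cells. Of the E2F targets CCNE1, CCNE2 and MCM5, none was called after E1A alone in either line, and CCNE2 (log2FC 2.45) and MCM5 (1.68) were higher with E1A in HCT116 oxpl-R cells given oxaliplatin. The median coefficient of variation of expressed genes was lowest in the HCT116 controls (9.96%) and highest in HCT116 oxpl-R cells with oxaliplatin (23.1%).

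All 9 genes had a count in every sample, and their levels covered a wide range. DDB1 and RAD23B were abundant at 190 to 643 and 195 to 448 CPM over the 24 samples, while ERCC4, ERCC5, ERCC6 and ERCC8 stayed below 31 CPM. Per kilobase of the canonical transcript in HCT116 controls (n = 3), DDB1 had 130 ± 13.98 (SD) CPM per kb and RAD23B 108 ± 1.44. ERCC3 followed with 37.7 ± 3.77, ERCC1 with 22.8 ± 0.996 and ERCC2 with 20.6 ± 2.49 CPM per kb, the last 2 of which overlapped within their SD. ERCC5 (3.68 ± 0.141), ERCC8 (2.35 ± 0.402), ERCC6 (1.75 ± 0.302) and ERCC4 (1.57 ± 0.206) were lowest. ERCC6 overlapped both ERCC8 and ERCC4 within their SD. On this length scale the nuclease subunit ERCC1 stood far above its partner ERCC4. The order depends on the length used. Per kb of merged exons RAD23B (96.1) lay above DDB1 (35.6), and ERCC1 (13.8), ERCC2 (12.2) and ERCC3 (12.2) were close together. Over the 8 conditions the highest mean CPM was 1.58 times (ERCC6) to 2.59 times (ERCC2) the lowest.

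**Figure D1:**
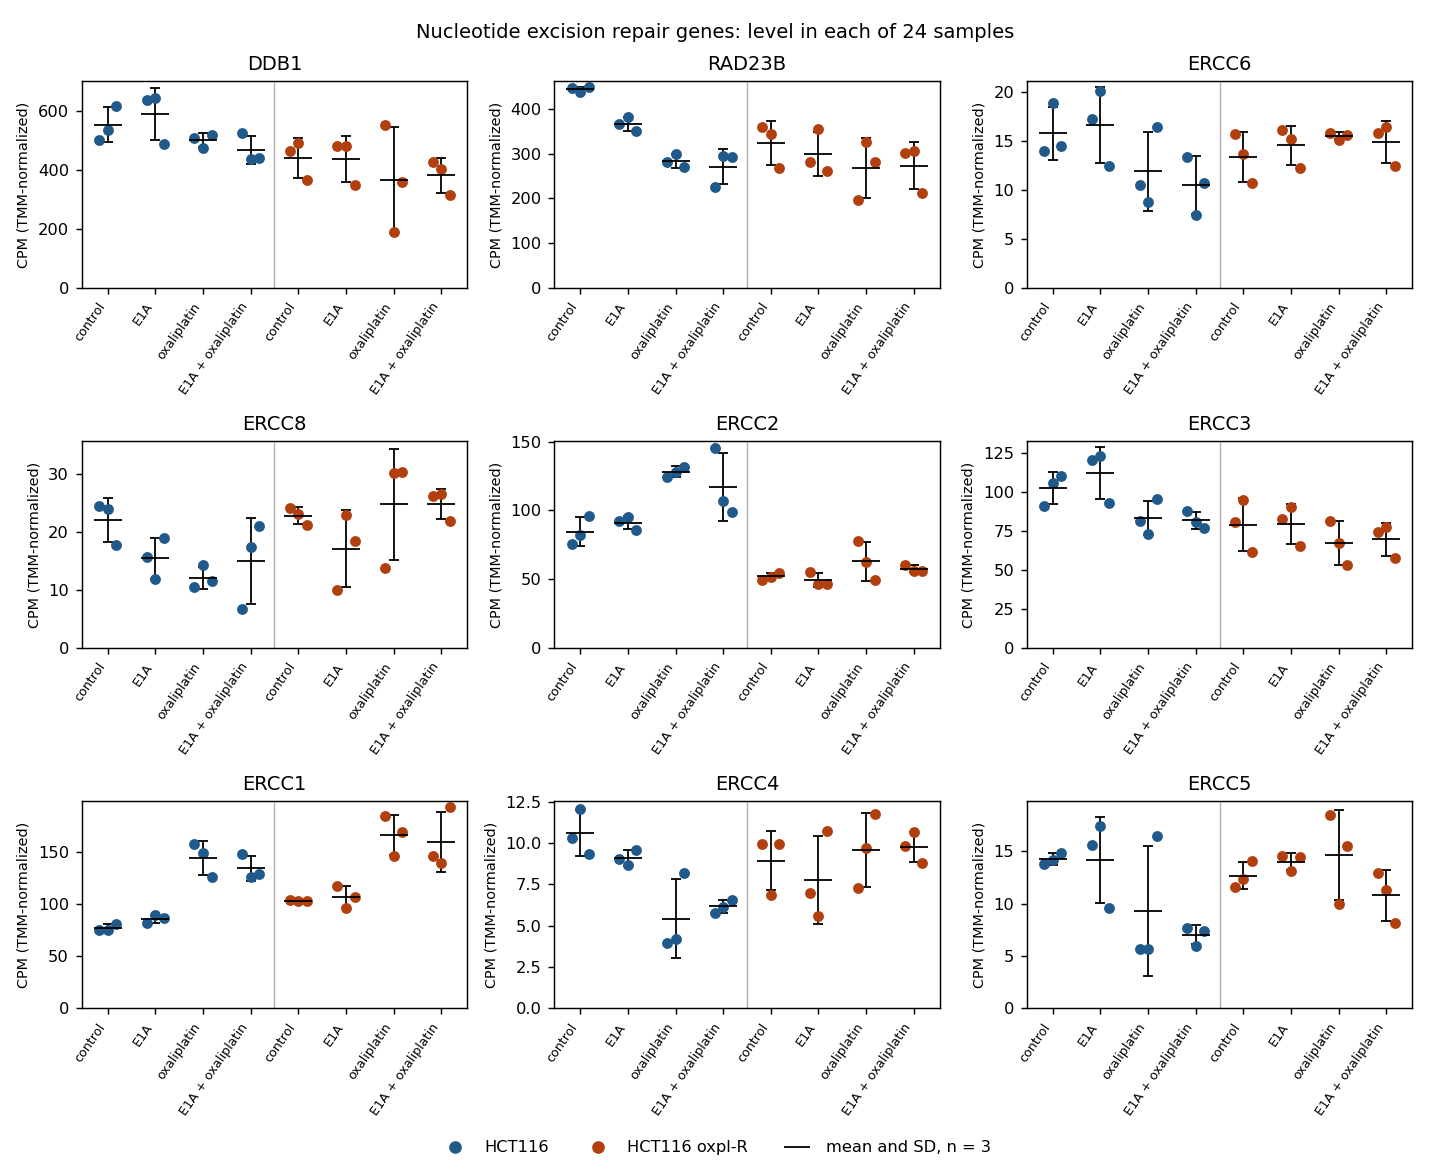
CPM (y axis, from 0) of the 9 genes in each sample of the 8 conditions (x axis), with HCT116 cells left and HCT116 oxpl-R cells right of the grey line; points are samples, and bars are the mean and SD of 3. ERCC2 in HCT116 oxpl-R cells stays between 46.2 and 77.4 CPM, and ERCC1 lies between 126 and 193 CPM in every sample with oxaliplatin.

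The question of how the resistant line differs from its parent was answered in each of the 4 conditions. Between the untreated lines 3 of 9 genes were called, ERCC1 higher and ERCC2 and RAD23B lower, where 14.1% of all 16715 genes tested were higher in the resistant cells and 14.2% lower. With E1A (10.6% of genes higher, 7.1% lower), with oxaliplatin (9.77% higher, 10.9% lower) and with both (10.1% higher, 8.39% lower), ERCC2 was the 1 gene called, and it was lower each time. The median log2FC of the 9 genes between the untreated lines was -0.24, beside 0.08 over all genes tested and -0.02 over 11096 expressed genes. Chromosome medians of expressed genes were -0.28 (chromosome 2, ERCC3), -0.25 (16, ERCC4), -0.18 (13, ERCC5) and -0.25 (10, ERCC6). Those of chromosomes 11 (DDB1), 9 (RAD23B), 5 (ERCC8) and 19 (ERCC1 and ERCC2) were 0.06, 0.13, 0.16 and 0.11. The part of chromosome copies in the values was not tested.

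The response to oxaliplatin was measured in both lines. In HCT116 cells 4 of 9 were called, ERCC1 and ERCC2 higher and RAD23B and ERCC8 lower, against 13.1% of all genes higher and 10.2% lower. In the presence of E1A, HCT116 cells had 2 called, ERCC1 higher and ERCC5 lower (5.2% of genes higher, 4.81% lower). In HCT116 oxpl-R cells none was called by edgeR after oxaliplatin (2.02% of genes higher, 2.1% lower), where 1 had an unadjusted p below 0.05 and DESeq2 called ERCC1. With E1A none was called either (1.12% higher, 0.948% lower), again with 1 gene at an unadjusted p below 0.05, and DESeq2 called 0. The 12 comparisons share samples, so these counts are not independent of each other.

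E1A alone was set against the controls, and both agents against oxaliplatin. In HCT116 cells RAD23B and ERCC8 were called lower (2.91% of genes higher, 6.59% lower). In HCT116 oxpl-R cells (0.0755% higher, 0% lower), in HCT116 cells with oxaliplatin (0.0246% higher, 0% lower) and in HCT116 oxpl-R cells with oxaliplatin (0.638% higher, 0% lower) none of the 9 was called by edgeR or DESeq2, and none had an unadjusted p below 0.05.

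**Figure D2:**
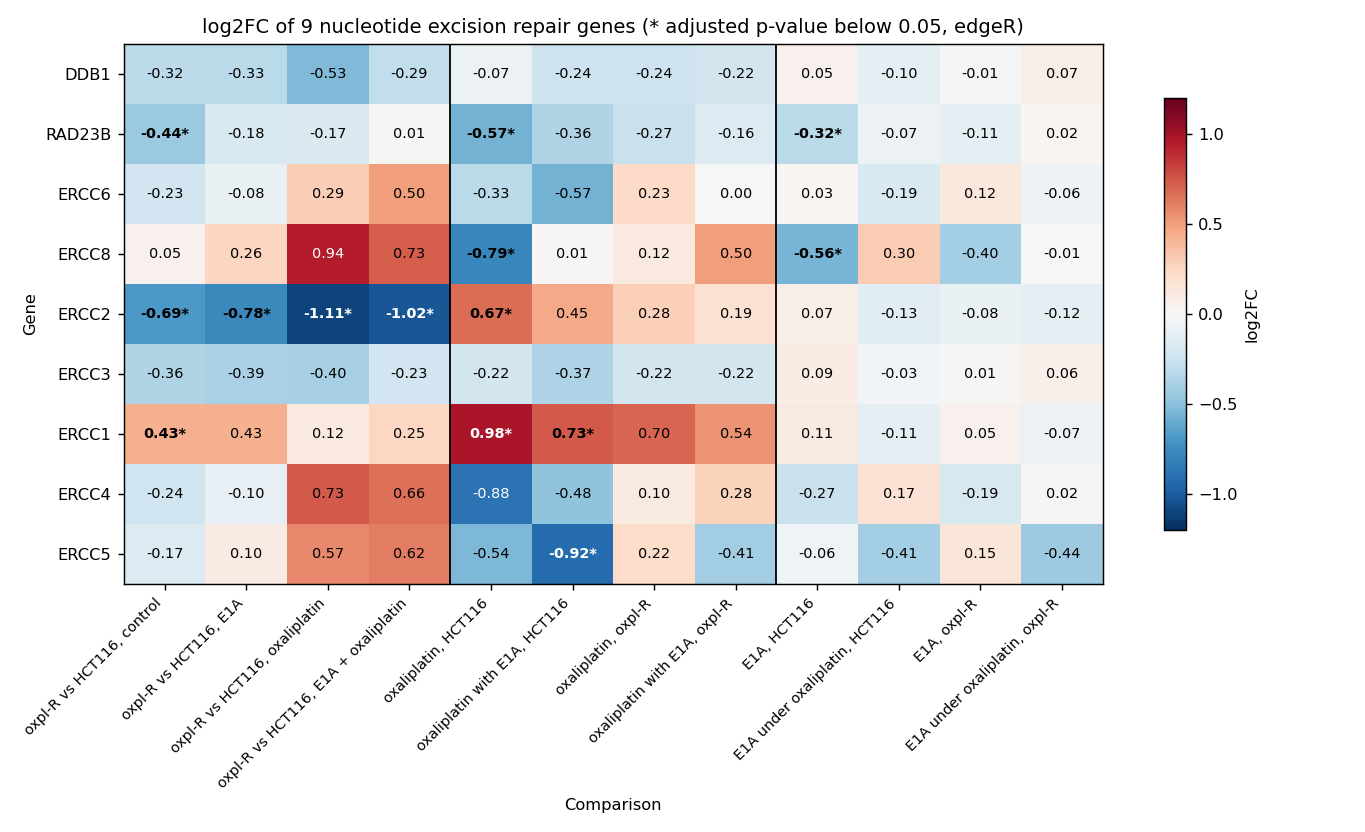
log2FC (colour and number) of the 9 genes (rows) in the 12 comparisons of 2 conditions (columns), with an asterisk where the adjusted p-value is below 0.05. ERCC2 is lower in HCT116 oxpl-R cells in all 4 conditions, from -0.69 to -1.11, and ERCC1 has its largest values after oxaliplatin.

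Among the recognition genes, RAD23B fell and DDB1 was not called. RAD23B, at chr9:107283137-107332192, had 446, 436 and 448 CPM in the 3 HCT116 controls and 282, 300 and 269 CPM after oxaliplatin. The 2 groups stood clear of each other, with a log2FC of -0.57 ± 0.12 (SE, edgeR adjusted p = 0.00741). In bulk RNA, fewer cells that express a gene and less RNA per cell cannot be told apart. HCT116 cells with E1A had 366, 383 and 349 CPM, also below every control (log2FC -0.32 ± 0.10, edgeR adjusted p = 0.0352). The untreated HCT116 oxpl-R cells had 358, 344 and 268 CPM, again below the parental controls (log2FC -0.44 ± 0.12, edgeR adjusted p = 0.0166). HCT116 oxpl-R cells given oxaliplatin spread from 195 to 325 CPM and overlapped their own controls (log2FC -0.27 ± 0.22). The calls of RAD23B turned on single samples and settings. The difference between the untreated lines was lost without any 1 of the HCT116 controls (edgeR adjusted p from 0.052 to 0.0683), and the oxaliplatin difference without control replicate 1 (0.0508). The E1A difference was kept in 3 of 9 other settings and 2 of 6 fits with a sample left out. Among its losses was that on the length-scaled table (log2FC -0.27, edgeR adjusted p = 0.115).

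DDB1, at chr11:61299451-61342596, had lower mean levels in HCT116 oxpl-R cells in all 4 conditions, with log2FC from -0.53 to -0.29 and no call. In HCT116 oxpl-R cells with oxaliplatin its CPM was 551, 190 and 360, the widest spread of the gene. The length-scaled value of replicate 2 in that group was 3.00 times its count, against 0.870 to 1.05 in the other 23 samples, so the low count of that sample goes with a shorter estimated transcript length. DDB2, the damage sensor that DDB1 carries and a p53 target, differed far more than DDB1. It had 39.7, 36.1 and 41.2 CPM in HCT116 controls and 171, 167 and 128 CPM after oxaliplatin (log2FC 2.07 ± 0.15, edgeR adjusted p = 0.000157). The untreated HCT116 oxpl-R cells already had 86.6, 90.1 and 83.5 CPM (log2FC 1.16 ± 0.11 against HCT116, edgeR adjusted p = 6.4e-06) and had 188, 162 and 205 CPM with oxaliplatin. The response of DDB2 in HCT116 oxpl-R cells was smaller than in HCT116 cells by 0.95 ± 0.23 on the log2 scale (interaction, edgeR adjusted p = 0.0358), a call kept in 4 of 9 other settings and with 4 of 12 samples left out in turn. It was lost without any 1 of the 3 HCT116 controls (0.109, 0.144 and 0.0628), HCT116 oxaliplatin replicate 1 (0.109) or 2 (0.0731), HCT116 oxpl-R control replicate 1 (0.0881) or 2 (0.0952) or HCT116 oxpl-R oxaliplatin replicate 2 (0.0789).

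Of the transcription-coupled pair, ERCC8 was called and ERCC6 was not. ERCC8, at chr5:60866454-60945073, had 24.5, 24.1 and 17.7 CPM in HCT116 controls and 10.6, 14.3 and 11.6 CPM after oxaliplatin. Every oxaliplatin sample lay below every control (log2FC -0.79 ± 0.20, edgeR adjusted p = 0.0199), a call lost without HCT116 control replicate 1 (0.106) or 2 (0.103) or oxaliplatin replicate 1 (0.051), on the length-scaled table with edgeR (0.0571) and in the 24-sample fit (0.0613). With E1A alone the HCT116 cells had 15.7, 11.9 and 19.0 CPM, which overlapped the controls (log2FC -0.56 ± 0.17, edgeR adjusted p = 0.0366). This call was kept in 2 of 9 other settings and 3 of 6 fits with a sample left out. Among its losses was that on the length-scaled table (edgeR adjusted p = 0.206). HCT116 oxpl-R cells with oxaliplatin had 13.8, 30.2 and 30.5 CPM. The low sample was replicate 1, and against HCT116 cells with oxaliplatin the log2FC of ERCC8 was 0.94 ± 0.33 (edgeR adjusted p = 0.059), or 1.24 without that replicate (edgeR adjusted p = 0.00924). ERCC6, at chr10:49454168-49539538, ranged from 7.42 to 20.1 CPM over all samples and its log2FC in the 12 comparisons of 2 conditions lay between -0.57 and 0.50.

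In that comparison of the lines under oxaliplatin, deviations from the group means correlated weakly across genes between same-numbered replicates (0.141, 0.186 and 0.252). Differently numbered replicates were not compared, so a pairing by number is not shown. With the replicate number as a block, ERCC8 (log2FC 0.87, edgeR adjusted p = 0.025) and ERCC4 (0.78, edgeR adjusted p = 0.0455) were called higher in HCT116 oxpl-R cells beside the lower ERCC2, 3 genes in place of 1.

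The TFIIH helicase ERCC2 was lower in the resistant line in every condition. ERCC2, at chr19:45349837-45370918, had 75.8, 82.2 and 95.8 CPM in HCT116 controls and 49.4, 51.8 and 54.8 CPM in HCT116 oxpl-R controls. All resistant samples lay below all parental ones, with a ratio of 0.619 (log2FC -0.69 ± 0.11, edgeR adjusted p = 0.000573). With E1A the parental cells had 92.4, 95.0 and 86.0 CPM and the resistant cells 55.5, 46.4 and 46.2 CPM (log2FC -0.78 ± 0.14, edgeR adjusted p = 0.00273). The groups were also apart after oxaliplatin, at 124, 128 and 132 CPM against 77.4, 62.3 and 49.1 CPM (log2FC -1.11 ± 0.22, edgeR adjusted p = 0.00354). With both agents the values were 145, 107 and 99.0 against 60.5, 56.2 and 56.0 CPM (log2FC -1.02 ± 0.21, edgeR adjusted p = 0.00278), and limma on the length-scaled table did not call this last difference (log2FC -0.65, adjusted p from 0.061 to 0.0755). Oxaliplatin raised ERCC2 in HCT116 cells without overlap (log2FC 0.67 ± 0.13, edgeR adjusted p = 0.00625). In HCT116 oxpl-R cells the change was 0.28 ± 0.20, and the difference between the 2 responses, -0.37 ± 0.25, was not called (edgeR adjusted p = 0.493). The other helicase, ERCC3, at chr2:127257290-127294166, was called in none of the 12 comparisons with all samples in. With 1 sample left out it was called lower in the resistant line without HCT116 oxpl-R control replicate 2 (log2FC -0.52, edgeR adjusted p = 0.00381) and, with E1A, without HCT116 oxpl-R E1A replicate 2 (-0.57, edgeR adjusted p = 0.0364). For oxaliplatin in HCT116 cells it was called lower without oxaliplatin replicate 3, as given with the nucleases, and with E1A present without E1A + oxaliplatin replicate 1 (-0.46, edgeR adjusted p = 0.00231). Its log2FC between the lines ran from -0.40 to -0.23, with 90.9, 106 and 110 CPM in HCT116 controls and 81.0, 94.9 and 61.2 CPM in HCT116 oxpl-R controls, so the groups overlapped.

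ERCC1, at chr19:45407334-45478828, lies 36415 bases from ERCC2 on the same strand and moved in the other direction between the untreated lines. It had 75.2, 75.0 and 80.9 CPM in HCT116 controls and 104, 103 and 102 CPM in HCT116 oxpl-R controls, without overlap (log2FC 0.43 ± 0.10, edgeR adjusted p = 0.00558). This difference was smaller on the length-scaled table (log2FC 0.22, edgeR adjusted p = 0.185). There the length-scaled value of ERCC1 was 1.05 to 1.11 times its count in HCT116 controls and 0.921 to 0.936 times in HCT116 oxpl-R controls, so the count difference goes with a difference in estimated transcript length. Over the 703 expressed genes of chromosome 19 the median log2FC between the lines was 0.11 untreated, 0.05 with E1A, -0.39 with oxaliplatin and -0.21 with both. Less these medians, in the same order, the log2FC of ERCC2 was -0.80, -0.83, -0.73 and -0.82. That of ERCC1 was 0.32, 0.38, 0.51 and 0.45. Before the medians were taken off, the log2FC of ERCC1 was 0.43 untreated and 0.43 with E1A (edgeR adjusted p = 0.055). It was 0.12 with oxaliplatin (edgeR adjusted p = 0.715) and 0.25 with both (edgeR adjusted p = 0.424), where the samples of the lines overlapped. The gene POLR1G, on the opposite strand, shares 3404 bases with ERCC1 and was lower in HCT116 oxpl-R cells in all 4 conditions (log2FC from -1.12 to -0.64). The strand setting of the counting is not given in the sources used here, so reads of the 2 genes may not be fully separated. KLC3 overlaps ERCC2 on the opposite strand in the same way, over 1684 bases, FOSB overlaps ERCC1 and TKFC, which was not analysed here, overlaps DDB1.

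After oxaliplatin ERCC1 had its highest levels in both lines. In HCT116 cells it reached 158, 149 and 126 CPM, above every control, with a ratio of 1.97 (log2FC 0.98 ± 0.13, edgeR adjusted p = 0.00142). HCT116 oxpl-R cells had 185, 146 and 169 CPM, also above every control of that line, but the log2FC of 0.70 ± 0.18 missed the threshold (edgeR adjusted p = 0.0509). It passed in 8 of 9 other settings (adjusted p from 0.0049 upwards, log2FC 0.68 to 0.75), RLE normalization being the exception. With E1A present, ERCC1 rose in HCT116 cells from 81.2, 89.4 and 86.2 to 148, 126 and 129 CPM (log2FC 0.73 ± 0.17, edgeR adjusted p = 0.0133), a call lost without E1A replicate 1 (0.135) or 2 (0.0979). In HCT116 oxpl-R cells with E1A it went from 118, 95.6 and 107 to 146, 140 and 193 CPM (log2FC 0.54 ± 0.18, edgeR adjusted p = 0.189). Deviations of same-numbered samples correlated in that comparison (0.403, 0.473 and 0.518), without a check against differently numbered samples. With the replicate number as a block ERCC1 was called (log2FC 0.53, edgeR adjusted p = 0.0141), 1 gene in place of 0. The responses of ERCC1 to oxaliplatin in the 2 lines differed by -0.26 ± 0.22 (interaction, edgeR adjusted p = 0.62).

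**Figure D3:**
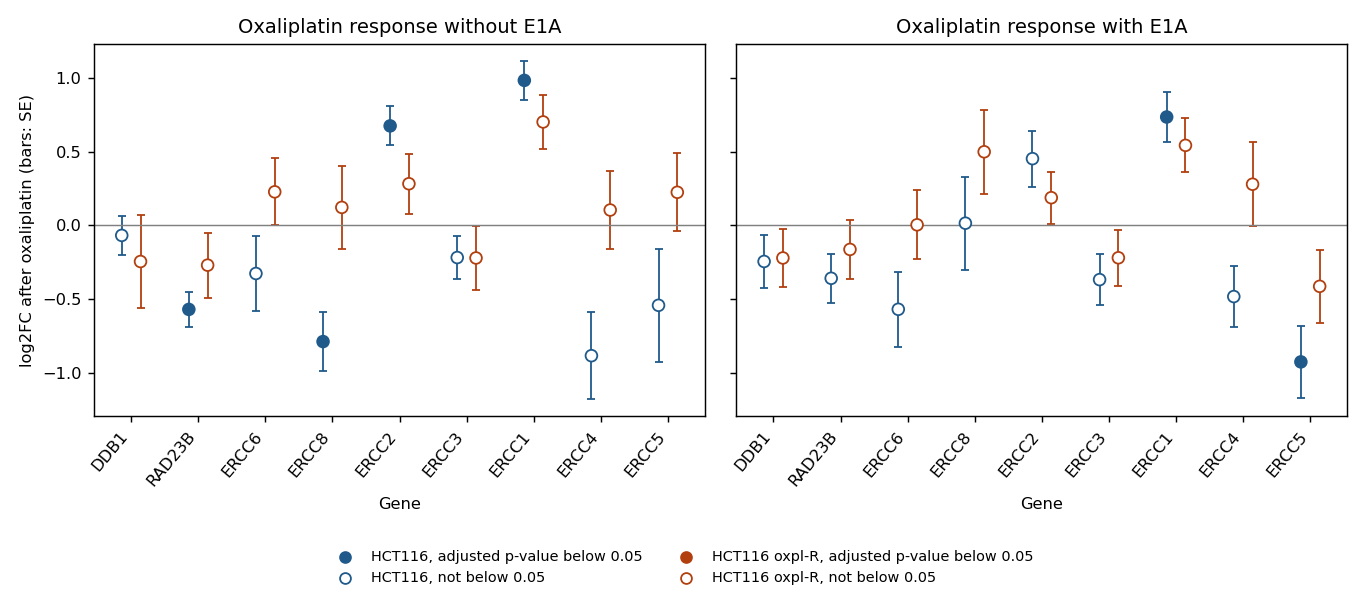
log2FC after oxaliplatin (y axis, bars are SE) of the 9 genes (x axis) in HCT116 and HCT116 oxpl-R cells, without E1A (left) and with E1A (right); filled points have an adjusted p-value below 0.05. ERCC1 is above 0 in all 4 comparisons, at 0.98 and 0.70 without E1A and at 0.73 and 0.54 with it.

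ERCC1 and ERCC2 are neighbours that were called in opposite directions between the untreated lines. RAD23B and ERCC8 were both called lower after oxaliplatin in HCT116 cells without E1A, and in no other oxaliplatin response. For these reasons the promoters of the 4 genes are shown. Each is the RefSeq window of GRCh38.p14 from 250 bases before to 50 bases after the start site of the canonical transcript, 5′ to 3′ on the strand of the gene. Capitals mark every GC box (GGGCGG on either strand) and CCAAT box (CCAAT on either strand).
ERCC1, chr19:45423868-45424167, minus strand: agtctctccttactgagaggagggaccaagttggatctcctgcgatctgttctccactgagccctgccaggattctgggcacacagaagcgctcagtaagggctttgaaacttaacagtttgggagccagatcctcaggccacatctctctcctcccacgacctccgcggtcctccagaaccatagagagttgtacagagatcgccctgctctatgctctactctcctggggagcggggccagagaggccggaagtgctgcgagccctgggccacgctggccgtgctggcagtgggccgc
ERCC2, chr19:45370524-45370823, minus strand: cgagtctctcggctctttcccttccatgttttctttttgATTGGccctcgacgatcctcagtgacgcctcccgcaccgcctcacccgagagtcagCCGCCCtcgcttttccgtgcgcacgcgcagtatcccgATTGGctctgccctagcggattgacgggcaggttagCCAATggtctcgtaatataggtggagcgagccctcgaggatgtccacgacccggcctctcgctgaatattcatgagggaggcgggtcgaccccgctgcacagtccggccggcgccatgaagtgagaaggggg
RAD23B, chr9:107283029-107283328, plus strand: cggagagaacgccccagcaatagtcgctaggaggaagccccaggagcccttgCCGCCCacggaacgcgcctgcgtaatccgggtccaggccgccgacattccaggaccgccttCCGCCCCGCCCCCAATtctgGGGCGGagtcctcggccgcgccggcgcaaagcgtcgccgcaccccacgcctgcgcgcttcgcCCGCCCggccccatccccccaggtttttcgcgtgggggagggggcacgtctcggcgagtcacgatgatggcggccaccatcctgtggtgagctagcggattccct
ERCC8, chr5:60945021-60945320, minus strand: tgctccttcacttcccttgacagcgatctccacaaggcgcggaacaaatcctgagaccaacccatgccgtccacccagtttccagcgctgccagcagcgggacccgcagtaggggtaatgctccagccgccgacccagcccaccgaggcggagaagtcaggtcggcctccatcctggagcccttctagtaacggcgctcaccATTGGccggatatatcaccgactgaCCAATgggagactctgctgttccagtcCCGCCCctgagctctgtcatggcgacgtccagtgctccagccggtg
The ERCC1 window held neither motif. ERCC2 had 1 GC box and 3 CCAAT boxes, RAD23B had 5 GC boxes, of which 2 share a base, with 1 CCAAT box beside them, and ERCC8 had 1 GC box and 2 CCAAT boxes. Over the 9 genes a GC box was found in 6 windows and a CCAAT box in 3, against 44.95% and 34.6% of all 35116 promoter windows of that length. A p53 half-site was found in none of the 9 and in 6.63% of all windows, and the DDB2 window held 2. These are matches of letters in short windows, and ERCC1 and RAD23B each have 3 annotated windows, of which 1 was read.

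The remaining nucleases had low counts and wide spread. ERCC4, at chr16:13920138-13952348, had 10.3, 12.1 and 9.35 CPM in HCT116 controls and 3.94, 4.17 and 8.18 CPM after oxaliplatin. All 3 lay below the controls, with a log2FC of -0.88 ± 0.30 that missed the threshold (edgeR adjusted p = 0.0571) and passed it in 6 of 9 other settings. ERCC5, at chr13:102845831-102875995, had 13.8, 14.2 and 14.9 CPM in HCT116 controls and 5.70, 5.70 and 16.5 CPM after oxaliplatin. For both genes the high sample was HCT116 oxaliplatin replicate 3. Without it 8 of the 9 genes were called in place of 4, among them ERCC4 (log2FC -1.35, edgeR adjusted p = 1.65e-05), ERCC5 (-1.29, edgeR adjusted p = 6.02e-06), ERCC6 (-0.67, edgeR adjusted p = 0.00444) and ERCC3 (-0.36, edgeR adjusted p = 0.0134). With E1A, oxaliplatin lowered ERCC5 in HCT116 cells from 15.6, 17.4 and 9.57 to 7.70, 5.98 and 7.42 CPM, without overlap (log2FC -0.92 ± 0.24, edgeR adjusted p = 0.0268). That call was lost without E1A replicate 1 (0.106) or 2 (0.131) or E1A + oxaliplatin replicate 2 (0.103), while without E1A + oxaliplatin replicate 1 the count of genes called rose from 2 to 5. The read-through transcript BIVM-ERCC5 shares the ERCC5 exons and reached at most 50.96 counts in a sample, so part of the ERCC5 reads may be split between them.

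Whether the lines or the agents changed each other's effect was tested by interaction terms. None of the 9 genes was called by edgeR or DESeq2 in any of the 5. For the oxaliplatin response (0.694% of genes higher, 1.75% lower in HCT116 oxpl-R than in HCT116 cells), 2 of the 9, ERCC4 (1.00 ± 0.41, edgeR adjusted p = 0.23) and ERCC8 (0.93 ± 0.37, edgeR adjusted p = 0.207), had an unadjusted p below 0.05. Without HCT116 oxaliplatin replicate 3, ERCC4 (1.44, edgeR adjusted p = 0.0175) and ERCC5 (1.498, edgeR adjusted p = 0.0119) were called, and without HCT116 oxpl-R oxaliplatin replicate 1 ERCC8 was (1.21, edgeR adjusted p = 0.0159). For the E1A response without oxaliplatin (0.00548% higher, 0.011% lower) and with it (0.0111% higher, 0% lower) none had an unadjusted p below 0.05. The same held for the E1A by oxaliplatin interaction in HCT116 cells (0% higher, 0% lower, with 826 of 17632 genes at an unadjusted p below 0.05) and in HCT116 oxpl-R cells (0% higher, 0% lower, with 471 of 18350). In HCT116 cells ERCC8 was called in that term without E1A + oxaliplatin replicate 1 (1.17, edgeR adjusted p = 0.0396).

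The other genes of the pathway were taken from a list of 44, of which 36 were in the count table. Between the untreated lines 12 were higher and 7 lower (14.1% and 14.2% of all genes). CUL4A, a scaffold of the ligase that holds DDB1, was lowest (log2FC -0.95 ± 0.13) and DDB2 highest. The median log2FC of the 36 was -0.18, against 0.08 over all genes and -0.02 over expressed genes. In the 24-sample fit 9 were called in place of 19. With E1A 9 were higher and 6 lower (10.6% and 7.1% of all genes, median 0.07 against 0.15), and CUL4A (-0.88) and DDB2 (1.28) were again at the ends. That count of 15 fell to 6 without HCT116 E1A replicate 1 and 5 without replicate 2, and rose to 23 without HCT116 oxpl-R E1A replicate 3. CUL4A and DDB2 were called in both comparisons under all 9 other settings and with any sample left out. CUL4B, listed with CUL4A among the recognition genes, was called higher in HCT116 oxpl-R cells in every condition. Its log2FC was 0.72 untreated, 0.56 with E1A, 1.15 with oxaliplatin and 0.99 with both. With E1A that call was kept in 4 of 9 other settings and 2 of 6 fits with a sample left out, and elsewhere in all. After oxaliplatin 6 were higher and 9 lower (9.77% and 10.9% of all genes, median -0.32 against 0.04), from POLE, the catalytic subunit of DNA polymerase epsilon (-1.91 ± 0.26), to CETN2, a partner of XPC (1.85 ± 0.25). This count stayed at 14 or 15 with any sample left out, and 10 of the 15 genes were called in every such fit. Of the 17 gap-filling genes among the 36, 7 were lower and 1 was higher there, and the other 2 lower genes were RPA1 and GTF2H4. The higher gene, PCNA, kept its call in 1 of 6 fits with a sample left out. Of the lower genes, POLD3 kept its call in 3 of 6 and POLE4 in 4 of 6. With both agents 6 were higher and 8 lower (10.1% and 8.39% of all genes, median -0.13 against 0.11), from LIG1, a DNA ligase (-1.11 ± 0.21), to CDK7 (1.18 ± 0.33). The count of 14 fell to 6 without HCT116 oxpl-R E1A + oxaliplatin replicate 2 and to 9 without replicate 3 or with limma at either pseudocount.

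The subunits of TFIIH split in the comparison of the lines. The kinase module, CDK7 with CCNH and MNAT1, had positive log2FC in HCT116 oxpl-R cells in every condition, and all 3 were called in the controls (0.66, 0.52 and 0.61), after oxaliplatin (1.26, 1.46 and 1.67) and after both agents (1.18, 1.09 and 1.13), while with E1A CDK7 alone was called (0.96). With samples left out in turn, CCNH and MNAT1 kept their call in the controls in 3 of 6 fits each and CDK7 its call with E1A in 2 of 6. After both agents CCNH and MNAT1 kept theirs in 4 of 6 fits each, and CDK7 in 6 of 6. In the 9 other settings CCNH was called after both agents in 4, MNAT1 in 8 and CDK7 in 7. In the controls CCNH and MNAT1 were called in 6 of these settings each and CDK7 in 8, and with E1A CDK7 was called in 3. GTF2H4, a core subunit, was lower in all 4 conditions, like ERCC2 (log2FC from -0.91 to -0.58). Its call after oxaliplatin was kept in 5 of 9 other settings and in 4 of 6 fits with a sample left out. With E1A it was kept in 9 of 9 and 5 of 6, and in the controls and after both agents in all. GTF2H1, GTF2H2, GTF2H3 and GTF2H5 were not called between the lines. In HCT116 cells oxaliplatin lowered CDK7 (-1.08 ± 0.16), CCNH (-1.10 ± 0.21), MNAT1 (-1.07 ± 0.22) and GTF2H3 (-0.68 ± 0.18) and raised GTF2H4 (0.52 ± 0.13), with ERCC2. The calls of CDK7 and CCNH held with any sample left out, that of MNAT1 in 5 of 6 fits, of GTF2H3 in 3 and of GTF2H4 in 2. None of these 8 other subunits was called after oxaliplatin in HCT116 oxpl-R cells (edgeR, also none at an unadjusted p below 0.05), and none of their interaction terms was called. ERCC2 bridges the helicase core and the kinase module of the complex.

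**Figure D4:**
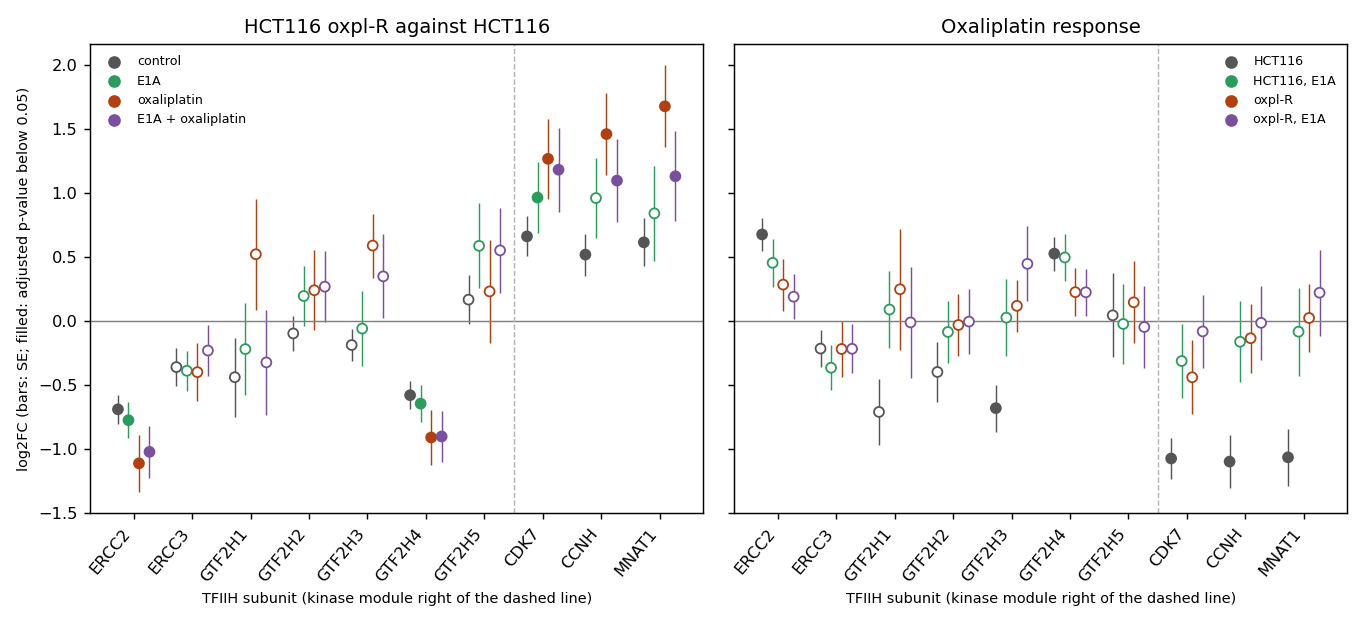
log2FC (y axis, bars are SE) of the 10 TFIIH subunits (x axis) between the lines in 4 conditions (left) and after oxaliplatin (right); filled points have an adjusted p-value below 0.05. ERCC2 and GTF2H4 lie below 0 and the kinase module above 0 on the left, and on the right the filled points are those of HCT116 cells without E1A for CDK7, CCNH, MNAT1, GTF2H3, GTF2H4 and ERCC2.

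Across the pathway oxaliplatin called 8 genes higher and 11 lower in HCT116 cells (13.1% and 10.2% of all genes), from CCNH to DDB2, with a median log2FC of -0.29 against 0.02 over all genes. The count of 19 fell to 9 without HCT116 control replicate 1, 8 without control replicate 2 and 12 without oxaliplatin replicate 1, and rose to 31 without oxaliplatin replicate 3. Of the 19 genes, 8 were called with any sample left out, DDB2 and CCNH among them. In HCT116 oxpl-R cells 2 were higher and 6 lower (2.02% and 2.1% of all genes, median -0.29 against -0.0043), from POLE2, an accessory subunit of polymerase epsilon (-1.64 ± 0.35), to POLD4, a small subunit of polymerase delta (1.39 ± 0.21), and DESeq2 called 13 in place of 8. With E1A, 2 were higher in HCT116 cells (5.2% of all genes, 4.81% lower), DDB2 (1.96) and POLD4 (1.45). Both were called in all 9 other settings and with any sample left out, while the count rose to 20 without HCT116 E1A + oxaliplatin replicate 1 and to 4 without E1A replicate 3, and was 4 with filterByExpr and 5 with DESeq2. With E1A the HCT116 oxpl-R cells (1.12% of all genes higher, 0.948% lower) had DDB2 higher (1.17) and RFC1, the large subunit of the clamp loader, lower (-1.29). RFC1 kept its call in 3 of 9 other settings. With the replicate block 10 genes were called there in place of 2, with 4 under DESeq2, and a pairing by number is not shown. The count also rose to 4 without HCT116 oxpl-R E1A replicate 1 and 6 without replicate 3, and fell to 1 without HCT116 oxpl-R E1A + oxaliplatin replicate 1 or 2. E1A alone lowered 4 genes in HCT116 cells (6.59% of all genes), from GTF2H3 (-0.60 ± 0.11) to CETN2 (-0.49 ± 0.15), where limma on the length-scaled table and the 24-sample fit called 0 of the 36 and RLE normalization called 7. Without HCT116 control replicate 1 the count was 1, without control replicate 2 or E1A replicate 2 it was 2, without control replicate 3 it was 12 and without E1A replicate 3 it was 13. RFC4, another subunit of the clamp loader, was called higher with E1A in HCT116 oxpl-R cells given oxaliplatin (1.07 ± 0.22, edgeR adjusted p = 0.0246, with 0.638% of all genes higher). This single call was kept in 5 of 9 other settings, lost with filterByExpr (0.065) and limma (0.0764 to 0.103), and lost without HCT116 oxpl-R E1A + oxaliplatin replicate 2 (0.0856). Without any 1 of the other 5 samples 2 to 6 genes of the list were called, and 3 were in the 24-sample fit. No other gene of the list was called in the remaining E1A comparisons.

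Genes with the most similar pattern were ranked by Pearson's coefficient of mean log2(CPM + 1) over the 8 conditions, among 11096 expressed genes. CDKN1A came first for ERCC1 (0.997), followed by KANK3 (0.994). For ERCC2 the first was DES (0.998), for ERCC3 POGZ (0.996), for ERCC4 CDK17 (0.982), for ERCC5 HSPA5 (0.989), for ERCC6 LONP2 (0.980), for ERCC8 BTBD1 (0.996), for DDB1 NUP214 (0.994) and for RAD23B PAWR (0.986). With 8 points and so many genes high coefficients are common, and the points share libraries and scaling. Among the 9 genes themselves the highest coefficient was between DDB1 and ERCC3 (0.959) and the lowest between ERCC1 and RAD23B (-0.929), while ERCC1 and ERCC2 had -0.00145.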

How the data were processed

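RNA of 24 samples (8 groups of 3 biological replicates, groups from the labels of the series) was sequenced by the authors, trimmed with Trimmomatic, quantified with Salmon 1.6.0 on GENCODE transcripts of GRCh38 and summarized to genes with tximport. Estimated counts without normalization were deposited by the authors (33113 genes used here), beside length-scaled estimated counts (37967 genes) in a table named as TPM. The column sums of the latter are too high for TPM, which differs from the unit assumed in planning. The last row of each table is cut off and was left out. Totals and the spread between replicates set the precision.

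Counts were rounded and compared in R 4.3.3 with edgeR 4.0.16 (TMM, quasi-likelihood test, every gene with a count in the samples compared, Benjamini-Hochberg adjustment over all genes tested): 12 comparisons of 2 groups and 5 interaction terms, without a replicate block. Alternatives were RLE normalization, DESeq2 1.42.0, filterByExpr, a block for the replicate number, a joint fit of the 24 samples, leaving out samples singly, and limma 3.58.1 on the length-scaled table after log2 with a pseudocount of 1 or 0.1, and with 1 also for genes of at least 10 in 3 samples. An edgeR fit of that table was added after seeing the data. Replicate numbers were treated as pairing samples where the correlations across genes of all 3 same-numbered pairs were above 0.1. This held for the lines after oxaliplatin (0.141, 0.186 and 0.252) and for oxaliplatin with E1A in HCT116 oxpl-R cells (0.403, 0.473 and 0.518). Differently numbered samples were not compared, so this rule does not show a pairing. The tests were tested on simulated data.

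The members and the lists were chosen with earlier results of these data known. Named are the 9 members, DDB2, the called pathway genes with the largest and smallest log2FC in each comparison, the other TFIIH subunits, the treatment checks and the 3 most similar genes of each member, of which the first or second is given. The other TFIIH subunits, POLR1G, RPA1, CUL4B, PCNA, POLD3 and POLE4 were named after their values were seen. Gene positions and canonical transcripts are from a GENCODE release on GRCh38 that precedes the one of the authors. XPC, XPA, UVSSA, USP7, XAB2 and XRCC1 were not analysed here. STK19 and TCEA1 were not in the count table, so the main test did not cover them. One further gene that the naming rule covers is not reported here. Tables were made in Python 3.11.15 with pandas 2.3.3 and plots with matplotlib 3.10.9.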

Additional observations from a re-analysis of the deposited data

Results flagged for a closer look

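No gene of the 9 differed between the lines in its oxaliplatin response by the interaction test. Of the other genes of the pathway 5 did (edgeR, interaction term, log2 scale, HCT116 oxpl-R minus HCT116, 12 samples). CETN2, a partner of XPC, had a difference of 1.26 (SE 0.27, edgeR adjusted p = 0.0202), with a log2FC of -0.74 in parental and 0.50 in resistant cells. DDB2 differed by -0.95 (SE 0.23, edgeR adjusted p = 0.0358), being raised in both lines. POLD1 differed by -1.34 (SE 0.27, edgeR adjusted p = 0.0121), with a log2FC of 0.72 in parental and -0.64 in resistant cells. POLD2 differed by -1.01 (SE 0.22, edgeR adjusted p = 0.021), with 0.62 and -0.40, and POLE by -1.18 (SE 0.28, edgeR adjusted p = 0.0327), with -0.11 and -1.31. The number of pathway genes called in this term fell from 5 to 0 without HCT116 control replicate 1 or 2, to 2 without HCT116 oxaliplatin replicate 1 or HCT116 oxpl-R control replicate 1 or 2, and to 3 without HCT116 control replicate 3, without HCT116 oxpl-R oxaliplatin replicate 2 and with limma at either pseudocount, and rose to 10 without HCT116 oxaliplatin replicate 3 or HCT116 oxpl-R oxaliplatin replicate 1.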

How the results depend on the processing

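No value of a called gene among the 9 changed direction: over the alternatives other than leaving out samples 96 of 126 kept their call and 30 lost it, and with a sample left out 65 of 84 kept it. The number of the 9 genes called between the untreated lines fell from 3 to 1 with limma at either pseudocount and with all 24 samples in one fit. Between the lines after oxaliplatin it rose from 1 to 2 with RLE, DESeq2 and filtered limma and to 3 with the replicate block and the 24-sample fit. Between the lines after both agents it was 2 with filterByExpr, 3 with the block and 0 in the 3 limma settings. The correlations of same-numbered samples were not all above 0.1 there. After oxaliplatin in HCT116 oxpl-R cells it was 1 in place of 0 in every alternative but RLE, the block included. After E1A in HCT116 cells it fell from 2 to 1 with filterByExpr and to 0 with the block, limma, the edgeR fit of the length-scaled table and the 24-sample fit. After oxaliplatin with E1A it fell from 2 to 1 with limma in HCT116 cells and rose from 0 to 1 with the block and the 24-sample fit in HCT116 oxpl-R cells. With each sample left out in turn the counts ran from 2 to 5 between the untreated lines, 1 to 2 with E1A, 1 to 3 after oxaliplatin and 1 to 3 after both. They ran from 2 to 8 for oxaliplatin in the parental line, 0 to 1 in the resistant line, 0 to 2 for E1A in HCT116 cells and 0 to 5 for oxaliplatin with E1A in HCT116 cells. For the interaction of line and oxaliplatin they ran from 0 to 2 and for that of E1A and oxaliplatin in HCT116 cells from 0 to 1. A group left with 2 samples shares the spread of the others. The block changed no other count of the 9 by over 1.5 times. Where the correlations of same-numbered samples were not all above 0.1, the block also moved the count of other pathway genes called. For oxaliplatin it went from 19 to 12 in HCT116 cells, where ERCC8 also lost its call (edgeR adjusted p = 0.0605). It went from 8 to 16 in HCT116 oxpl-R cells and from 2 to 4 with E1A in HCT116 cells. For E1A alone in HCT116 cells it went from 4 to 0. For E1A under oxaliplatin in HCT116 oxpl-R cells it went from 1 to 3. The cause of these shifts was not tested, and ERCC4, ERCC5, ERCC6 and ERCC8, at 110 to 897 counts per sample, had the lowest counts of the 9.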
